A study of Mus musculus with 22 samples.

Results

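The genes described here are 33 genes of glycolysis and of the cellular response to low oxygen, followed through RNA sequencing of mouse sensory ganglia and of sensory neuron cultures. They were chosen as a list of symbols, and all 33 were found among the 55487 Ensembl genes counted in each deposited table. By role they are 2 transporters (Slc2a1 for glucose, Slc16a3 for lactate), 15 glycolytic enzymes (Hk1 and Hk2 to Ldha), 3 regulators of glycolytic flux (Pfkfb3, Pfkfb4 and Pdk1), 2 hydroxylases that read oxygen (Egln1 and Egln3), and 11 genes of other function that hypoxia is known to induce. Of these genes 32 map to 1 Ensembl identifier each. The symbol Aldoa covers a second identifier as well, which was not used and held 0.433 to 5.31 CPM (counts scaled to library size, here the size after TMM scaling).

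Glycolysis splits glucose into pyruvate, yields ATP without oxygen, and ends in lactate when pyruvate is not passed to mitochondria. When oxygen is plentiful, EGLN prolyl hydroxylases mark the HIF-1α and HIF-2α proteins for destruction by VHL. When it is scarce, HIF binds short DNA elements and raises the RNA of glucose transporters, glycolytic enzymes, angiogenic factors such as Vegfa, and its own brakes Egln1 and Egln3. Sensory neurons and their glia use glucose from the blood, and glia can pass lactate to neurons.

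Whole dorsal root ganglia (DRG, the clusters of sensory nerve cell bodies beside the spinal cord) at levels T10 to L5 were taken from wild-type (WT) mice and from mice labelled Postn knock out (KO), both treated for 5 days with vehicle or with imiquimod (IMQ), which activates TLR7 and inflames the skin in a way that resembles psoriasis. DRG neurons of both genotypes were cultured for 72 h without (control) or with recombinant POSTN (rPOSTN), the matricellular protein periostin that Postn encodes. There were 3 libraries in each group, apart from 2 in each IMQ group, 22 in 8 groups. The labels give no age, strain, dose or oxygen level, and do not say whether replicates are separate animals or cultures, so p-values measure the spread between these samples, which may be technical.

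Total counts ran from 16666489 to 24118303 per library. Postn checked the genotype labels. It stood at 21.9, 28.1 and 22.7 CPM in WT vehicle ganglia and at 4.04, 3.63 and 5.36 CPM in KO vehicle ganglia, a log2 difference of -2.48 (adjusted p = 0.011). In control cultures it stood at 919, 865 and 669.5 CPM in WT and at 104, 101 and 382 CPM in KO, which did not pass the test (log2 -2.07, adjusted p = 0.263). KO cultures numbered 3 thus held more Postn than the other KO cultures, 382 and 426 CPM. Libraries stood apart in other ways too. Vehicle library 1 of both genotypes had lower levels of long genes (a slope of -0.171 and -0.214 log2 CPM per doubling of gene length, against -0.041 to 0.161 in the other ganglia), and so had KO rPOSTN culture 1 (-0.147, against -0.027 to 0.049 in the other cultures). The culture libraries numbered 2 of KO stood apart in the genes described here. The neuron markers, 8 genes such as Rbfox3 and Tubb3, summed to 11900 to 14500 CPM in ganglia and 4810 to 6510 CPM in cultures, so the neurons the labels name were present in both. Cultures also held markers of other cells: 1330 to 2280 CPM over 6 myelinating Schwann cell genes and 562 to 1400 CPM over 6 fibroblast genes.

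The core of the HIF-binding element is ACGTG or GCGTG, and the promoters of 6 of these genes are shown: 5 of the 10 that differed most between KO cultures, and Gpi1 as 1 of the 2 members with a listed promoter and no core. The sequences are from RefSeq on the mouse build GRCm38.p6, 250 bases before the gene's start, 5′ to 3′ on the gene's strand, with each match to a core on either strand in capitals (CACGT and CACGC are the same cores read from the other strand). Egln3 (ENSMUSG00000035105, chr12:54203875-54204124, minus strand) had the largest difference between KO culture libraries and holds 1 match. Slc2a1 (ENSMUSG00000028645, chr4:119108495-119108744, plus strand) and Slc16a3 (ENSMUSG00000025161, chr11:120948817-120949066, plus strand), the 2 transporters, and Hk2 (ENSMUSG00000000628, chr6:82774455-82774704, minus strand), the hexokinase that hypoxia is known to induce, hold 2 matches each. Bnip3 (ENSMUSG00000078566, chr7:138909507-138909756, minus strand), a mitophagy gene, holds 5, and a pair of them overlap in CACGTG, which reads as ACGTG on both strands. Gpi1 (ENSMUSG00000036427, chr7:34230337-34230586, minus strand), the enzyme of the step after hexokinase, holds none.
Egln3: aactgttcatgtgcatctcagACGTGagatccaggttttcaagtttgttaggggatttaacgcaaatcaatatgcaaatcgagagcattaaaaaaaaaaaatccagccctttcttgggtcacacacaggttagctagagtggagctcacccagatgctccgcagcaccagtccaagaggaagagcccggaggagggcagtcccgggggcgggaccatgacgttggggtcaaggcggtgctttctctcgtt
Slc2a1: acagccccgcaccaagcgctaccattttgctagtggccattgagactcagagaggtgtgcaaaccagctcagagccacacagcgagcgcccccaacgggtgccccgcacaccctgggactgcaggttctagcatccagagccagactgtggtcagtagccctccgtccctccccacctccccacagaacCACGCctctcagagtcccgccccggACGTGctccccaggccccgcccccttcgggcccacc
Slc16a3: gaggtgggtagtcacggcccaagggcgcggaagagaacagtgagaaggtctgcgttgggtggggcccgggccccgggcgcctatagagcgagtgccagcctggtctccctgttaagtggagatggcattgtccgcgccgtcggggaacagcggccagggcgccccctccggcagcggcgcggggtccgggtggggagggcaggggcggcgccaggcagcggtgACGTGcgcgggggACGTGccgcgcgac
Hk2: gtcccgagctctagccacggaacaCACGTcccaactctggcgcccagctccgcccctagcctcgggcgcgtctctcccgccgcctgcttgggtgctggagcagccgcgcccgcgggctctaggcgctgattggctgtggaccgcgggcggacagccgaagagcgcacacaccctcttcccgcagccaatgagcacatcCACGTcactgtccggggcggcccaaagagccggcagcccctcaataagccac
Bnip3: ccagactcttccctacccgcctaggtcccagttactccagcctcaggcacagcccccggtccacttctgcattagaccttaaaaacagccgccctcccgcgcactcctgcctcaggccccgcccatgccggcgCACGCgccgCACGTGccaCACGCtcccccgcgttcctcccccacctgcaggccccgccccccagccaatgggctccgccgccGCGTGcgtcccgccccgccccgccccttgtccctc
Gpi1: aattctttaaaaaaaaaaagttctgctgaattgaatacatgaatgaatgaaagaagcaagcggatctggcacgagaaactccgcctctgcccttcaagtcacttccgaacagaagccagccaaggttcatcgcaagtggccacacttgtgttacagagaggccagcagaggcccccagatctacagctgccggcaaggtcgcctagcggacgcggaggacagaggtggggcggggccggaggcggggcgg
A core was found in 82.2% of the 45 listed promoters of these genes (300 bases, 250 before to 50 after the start) and in 43.8% of all 32851 listed promoters of that length. The mean G and C content was 61.5% and 53.8% in the same order. Of the 33 genes 31 had a listed promoter and 29 of these had a core in at least 1 promoter. Matches did not set apart the 10 members that lay over 2-fold higher in both KO cultures numbered 2: all 10 had a core, with a median of 2 matches in the best promoter, and so had 19 of the other 21, with a median of 3. A match is a run of letters, not evidence of binding.

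Levels within the ganglion spanned a wide range. Per kilobase of exon, in WT vehicle ganglia, the highest were the enzymes of the lower part of the pathway and aldolase: Aldoa at 727 CPM per kb, Gapdh at 455, Pkm (pyruvate kinase) at 237, Tpi1 at 199, Pgk1 at 165.5, Eno1 at 152 and Ldha (lactate dehydrogenase A) at 143. The lowest were Car9, a carbonic anhydrase of hypoxic tumours, at 0.192 CPM per kb, Slc16a3 at 0.523, Hk2 at 0.847 and Adm, the vasodilator peptide adrenomedullin, at 0.978. Reads of several of the enzymes can come from processed copies elsewhere in the genome: 51.7% of the 100-base stretches of Pgk1, 33.9% of Pgam1, 24.8% of Mif, 20.9% of Gapdh and 20.4% of Eno1 also occur in transcripts of other genes, so the counts of these 5 are uncertain.

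**Figure D1:**
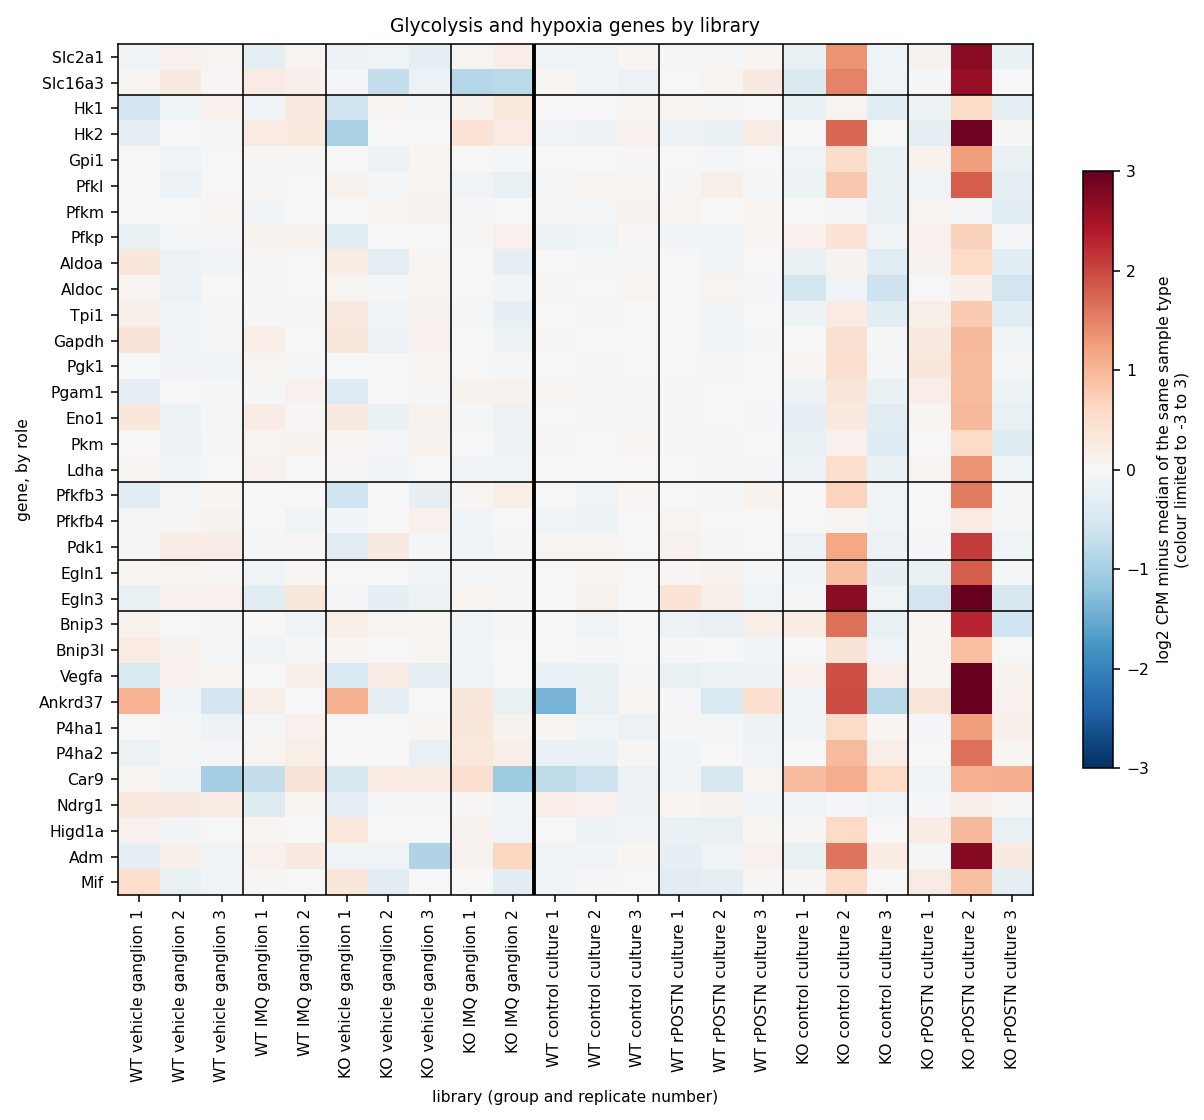
Level of each of the 33 genes (rows, grouped by role) in each of the 22 libraries (columns). Colour is log2 CPM minus the gene's median over the libraries of the same sample type (ganglion left of the thick line, culture right of it), limited to -3 to 3. The 2 dark columns are KO control culture 2 and KO rPOSTN culture 2.

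Wide differences among these genes lay within the KO cultures, between libraries of 1 group. In KO control culture 2 and KO rPOSTN culture 2, each of the 33 genes lay above the mean of the other 2 libraries of its group, as 33.8% of the 14894 genes with a mean of at least 1 CPM did. Of the 33, 10 lay more than 2-fold above that mean in both libraries (0.685% of all these genes), and rPOSTN culture 2 was the higher for all 10. These 2 libraries were singled out after the values were seen, so their values are a description and no test was made. Nothing in the labels sets them apart from the other KO cultures.

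Egln3, the hydroxylase most strongly induced by HIF in many cells, stood at 33.5 CPM in KO control culture 2 and 84.3 CPM in KO rPOSTN culture 2. In the other 4 KO cultures it stood at 4.94 and 4.69 CPM (control) and 3.49 and 3.70 CPM (rPOSTN). The ratios to the mean of the group's other libraries were 6.95 and 23.5. The 6 WT cultures lay at 4.69 to 6.79 CPM, so both libraries numbered 2 stood above every other culture. Egln1, the main oxygen sensor, stood at 101.5 and 191 CPM in the libraries numbered 2 and at 46.4 to 52.7 CPM in the other 4.

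Both transporters were high in the same libraries. Slc2a1 (GLUT1) stood at 280 CPM in control 2 and 725 CPM in rPOSTN 2, against 95.04, 101, 119 and 97.03 CPM in the other KO cultures and 103 to 115 CPM in the WT cultures. Slc16a3 (MCT4, which exports lactate) stood at 49.4 and 108 CPM, against 13.0 to 17.7 CPM in the other 4. The ratios were 2.85 and 6.72 for Slc2a1 and 3.37 and 6.23 for Slc16a3. Neither gene's library 2 overlapped any other KO culture.

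Among the 11 effectors, Vegfa, which directs vessel growth, stood at 494 and 1062 CPM against 135 to 149.7 CPM, with ratios of 3.39 and 7.73. Bnip3, which marks mitochondria for removal, stood at 101 and 156 CPM against 21.2 to 37.3 CPM, with ratios of 3.12 and 5.71. Adm stood at 39.8 and 86.3 CPM against 11.4 to 15.8 CPM. Ankrd37, an ankyrin-repeat gene used as a marker of HIF activity, was low throughout, at 4.31 and 9.47 CPM against 0.629 to 1.44 CPM. The procollagen hydroxylases, which collagen needs for its stable helix, differed less: P4ha2 by 1.82 and 3.09 times and P4ha1 by 1.53 and 2.27 times the mean of the others. Ndrg1, a stress gene abundant in Schwann cells, reached 1.07 and 1.15 times. Car9 overlapped the other cultures, at 1.90 and 1.87 CPM against 0.820 to 1.90 CPM.

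**Figure D2:**
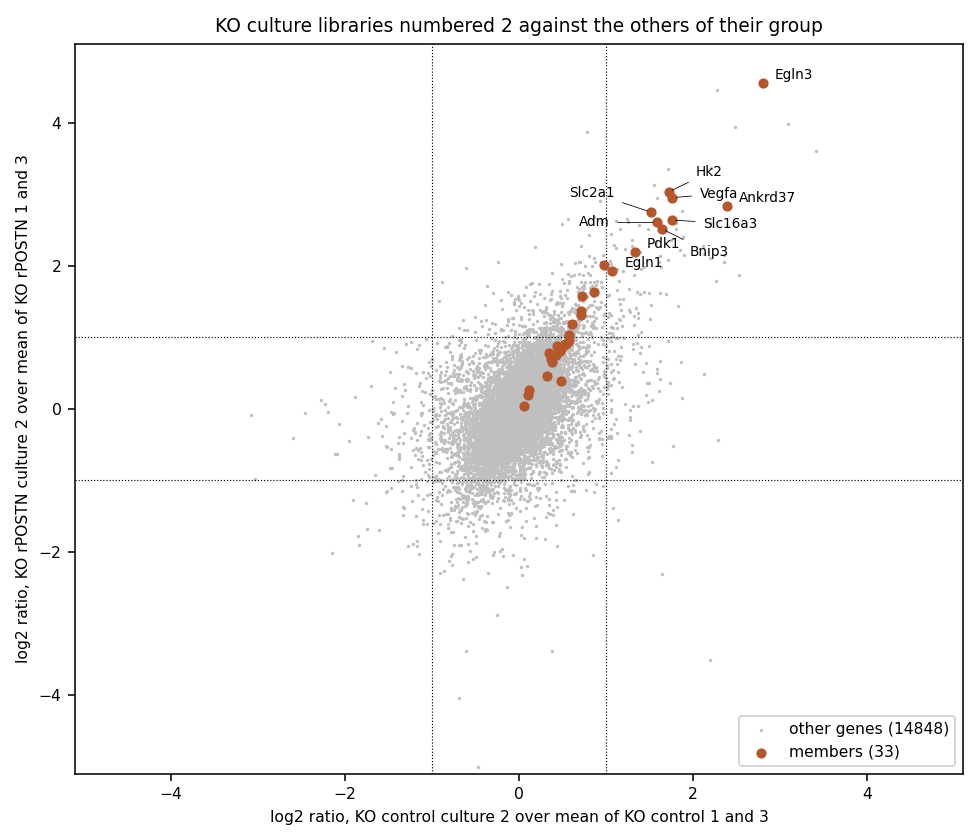
Ratio of each KO culture library numbered 2 to the mean of the other 2 libraries of its group, as log2, for control (horizontal) and rPOSTN (vertical) cultures. Each point is a gene with a mean of at least 1 CPM (genes with no count in a ratio are left out), the 33 genes are the large points, and dotted lines mark 2-fold. All 33 lie above 0 on both axes, and Egln3 lies farthest out.

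Most glycolytic enzymes lay closer to the other cultures. Hk2, which phosphorylates glucose as it enters the pathway, stood at 80.6 and 185 CPM against 20.1 to 25.2 CPM (ratios 3.29 and 8.19) and was the only one of 15 over 2-fold in both libraries. The median ratio of the 15 enzymes was 1.39 in control 2 and 1.79 in rPOSTN 2. Pfkl, the liver-type phosphofructokinase, reached 1.97 and 4.03 times the mean of the others, Ldha and Gpi1 both 1.64 times in control 2 and 2.59 and 2.47 times in rPOSTN 2, and Gapdh 1.40 and 1.83 times. Pfkm, the muscle-type phosphofructokinase, lay among the others at 97.5 and 95.8 CPM against 79.2 to 106 CPM. Pdk1, the kinase that keeps pyruvate out of mitochondria, followed the strong group (49.7 and 95.8 CPM against 19.8 to 21.5 CPM), and Pfkfb3, which makes the activator of phosphofructokinase, reached 1.65 and 2.98 times, while its paralog Pfkfb4 reached 1.09 and 1.20 times.

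Counted over all 33, 10 lay over 2-fold above the others in KO control culture 2 (1.28% of all genes) and 17 in KO rPOSTN culture 2 (3.35% of all genes). Both libraries numbered 2 lay above the highest of the other 4 KO cultures for 28 of 33 (16.3% of all genes). The exceptions were Pfkm, Aldoa, Aldoc, Ndrg1 and Car9. KO rPOSTN 2 was above KO control 2 for 31 of 33 (52.2% of all genes). Median ratios were 1.49 and 2.05, against 0.992 and 0.993 over all genes. In the 6 WT cultures, 0 of the 31 members with a mean of at least 1 CPM exceeded 2-fold, and their ratios ran from 0.746 to 1.33.

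Other genes of the same pathways, from lists that do not overlap the 33, divided by kind. Of 25 other hypoxia-induced genes, 8 lay over 2-fold above in both libraries (0.685% of all genes): Ak4, Selenbp1, Hilpda, Ero1a, Stc2, Cxcr4, Mxi1 and Ddit4. Ero1a, an oxidase of protein folding, stood at 598 and 1181 CPM against 227 to 259 CPM. Of 13 oxygen-sensing genes only Hif3a did, at 1.603 and 3.85 CPM, and Hif1a, whose protein rather than RNA is controlled by oxygen, was level at 141.6 and 155.1 CPM against 137 to 163 CPM. Of 15 pentose phosphate and glycogen genes only Pygl, the liver glycogen phosphorylase, did, at 34.2 and 50.8 CPM against 14.9 to 18.5 CPM. Ranked over the 9985 genes at 10 CPM or more in both libraries by the smaller of the 2 ratios, a ranking made after the values were seen, Egln3 was first and 8 of the first 20 were members (31 of the 9985 genes ranked are members), with Ndufa4l2, Depp1, Ak4 and Hilpda among the others.

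Markers of several cell types differed beside these genes. Neuron markers summed to 5090 and 5190 CPM in the libraries numbered 2, within the 4810 to 6510 CPM of the other 4 KO cultures. Fibroblast markers were below the others, at 573 and 562 CPM against 640 to 1400 CPM, and so were myelinating Schwann cell markers, at 1580 and 1330 CPM against 1870 to 2280 CPM. The sum over 8 macrophage markers was above the others, at 71.1 and 78.4 CPM against 58.6 to 68.5 CPM. The length slopes were 0.005 and 0.049. In bulk RNA, fewer cells of a type and less RNA per cell cannot be told apart. The part of these markers in the differences was not tested.

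**Figure D3:**
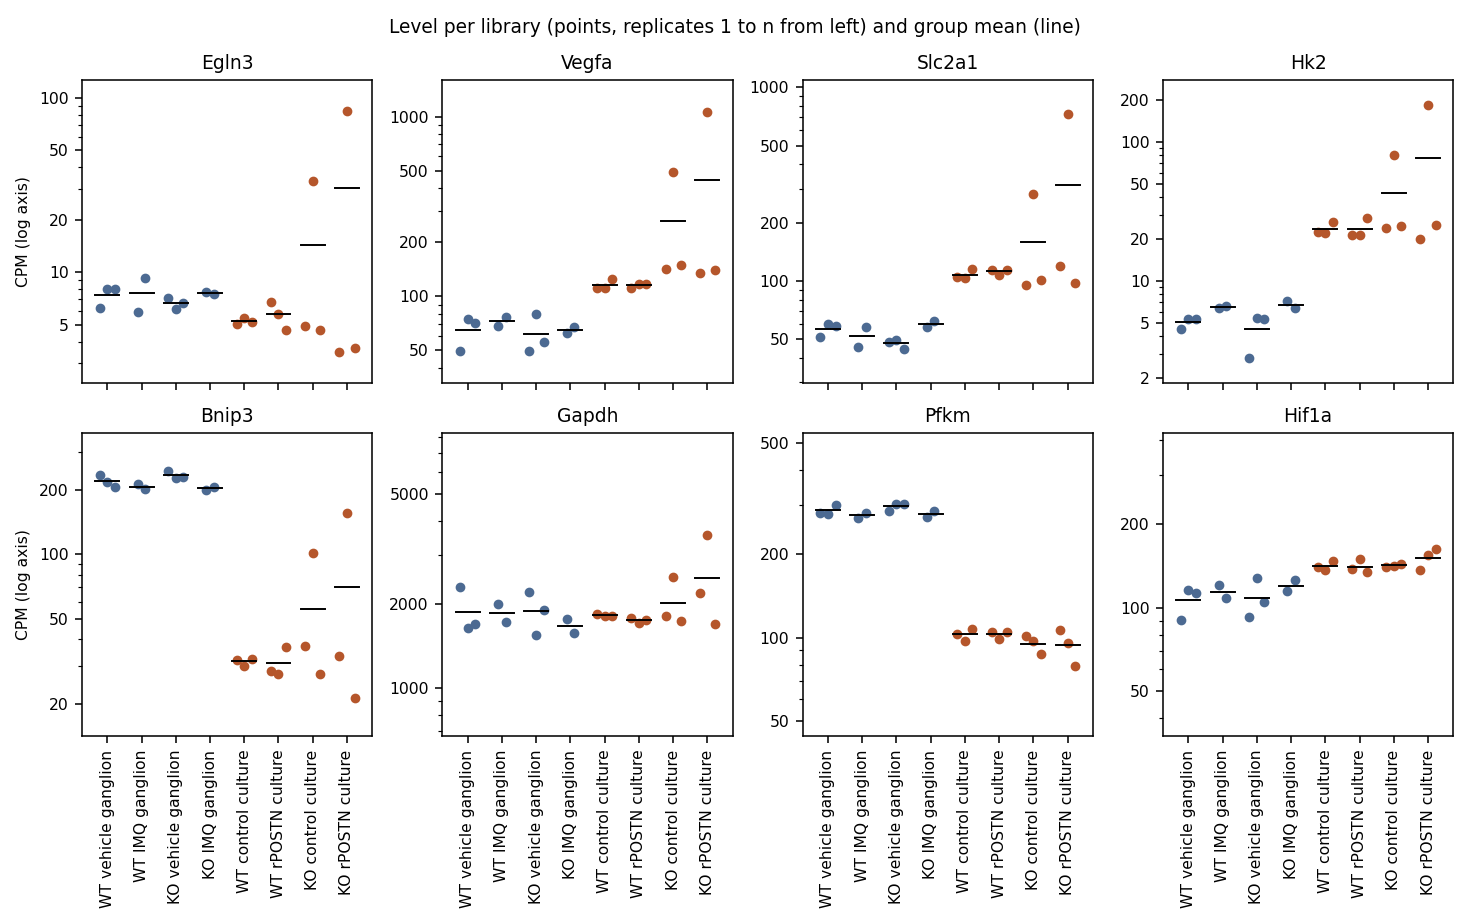
Level of 8 genes in every library (points, CPM on a log axis, blue ganglia and orange cultures) with the group mean (line). Egln3, Vegfa, Slc2a1, Hk2 and Bnip3 each have 1 high point in both KO culture groups, library 2, while Pfkm and Hif1a have none.

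Adding rPOSTN to WT cultures, which asks what periostin does to sensory neurons, changed none of these genes detectably. With the edgeR quasi-likelihood test (adjusted over all genes tested, threshold 0.05), 0 of 33 were called, against 0.0% of all genes tested, and 0 had an unadjusted p under 0.05. The smallest p belonged to Slc16a3, at 18.4, 16.7 and 15.5 CPM in controls and 17.5, 18.7 and 21.1 CPM with rPOSTN (log2 0.18 ± 0.10 SE, adjusted p = 0.999). These values overlapped. The 33 log2 differences ran from -0.14 to 0.39 with a median of -0.02 (0 over all genes), and the 95% interval of 31 of them lay within 2-fold in either direction. Pfkfb4 differed by 0.10 ± 0.05 and Gapdh by -0.06 ± 0.04. The fit behind these values ignored that same-numbered cultures deviated together. With the replicate number as a block, 0 of 33 were called, while 7 of all 16639 genes tested were called higher and 1 lower.

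In KO cultures the same comparison was dominated by the spread that the libraries numbered 2 gave. Again 0 of 33 were called (0.0% of all genes), and 0 had an unadjusted p under 0.05. The median log2 difference was 0.35 (0.01 over all genes), with 31 of 33 above 0. Egln3 gave 4.94, 33.5 and 4.69 CPM in controls and 3.49, 84.3 and 3.70 CPM with rPOSTN, so library 2 was the high value of both groups and the other rPOSTN values lay below the controls. Without KO rPOSTN culture 2 the median was -0.18, without KO control culture 2 it was 0.62, and without both it was 0.08. Egln3 then differed by -2.0 without KO rPOSTN 2 and by -0.42 without both, Vegfa by -0.94 and -0.09. Standard errors reached 1.64, and only 13 of the 33 intervals lay within 2-fold.

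The test of whether rPOSTN acted differently in KO and WT cultures called 0 of 33 (0.0% of all genes; 0 with an unadjusted p under 0.05). The median difference of the effects, KO minus WT, was 0.37, from -0.14 without KO rPOSTN culture 2 to 0.63 without KO control culture 2. Intervals of 10 of 33 lay within 2-fold. DESeq2 called 0 of 33 in these 3 comparisons too.

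KO against WT control cultures compares genotype and, at the same time, 2 separately deposited tables, which cannot be told apart. It called 0 of 33 (1.61% of all genes), with 2 at an unadjusted p under 0.05 (15.9% of all genes) and 0 called by DESeq2. Car9 stood at 0.527, 0.580 and 0.792 CPM in WT and 1.70, 1.90 and 1.35 CPM in KO, which did not overlap (log2 1.36 ± 0.38, adjusted p = 0.089). That rests on 40 counts over the 3 WT and 101 counts over the 3 KO libraries. Aldoc, the brain-type aldolase, stood at 31.5, 30.7 and 32.6 CPM in WT and 21.0, 28.5 and 20.02 CPM in KO (log2 -0.45 ± 0.16, adjusted p = 0.188). With no filter on low counts Aldoc alone was called (1.83% of all genes). Without both KO libraries numbered 2, 2 genes were called (2.89% of all genes): Aldoc fell by 0.63 on the log2 scale (adjusted p = 0.0223), and Vegfa rose by 0.33 ± 0.07 (adjusted p = 0.0255; 112, 112 and 125 CPM in WT, 142 and 149.7 CPM in the KO libraries left). The median of the 33 was 0.24 with all libraries and -0.13 without KO control 2. These KO controls are the same libraries as in the rPOSTN comparison.

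Cultured cells differed from the ganglion in many genes, and in the main fit a smaller share of these 33 was called than of all genes. Sample type and table coincide in control cultures against vehicle ganglia and cannot be told apart. In WT 16 of 33 were called (48.5%, against 67.5% of all genes tested). In KO 20 of 33 were called (60.6%, against 68.6% of all genes tested). Of the WT calls 8 were higher (33.9% of all genes) and 8 lower (33.6%). In KO 12 were higher (35.3% of all genes) and 8 lower (33.3%). The median log2 difference was -0.07 in WT and 0.09 in KO, against 0.01 and 0.05 over all genes. The order of the shares depended on the setting. With no filter on low counts 23 of 33 were called in each genotype, against 35.3% of all genes in WT and 36.4% in KO. Without both KO libraries numbered 2, 28 of 33 were called in KO, against 67.5% of all genes, and no KO call was lost.

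The genes higher in culture in both genotypes were Adm, Slc16a3, Hk2, Pfkfb4, P4ha1, P4ha2, Pfkfb3 and Pgk1, which are all 8 of the WT list and 66.7% of the KO list. The overlap of the genotypes over all genes was not counted. Adm rose from 1.36, 1.84 and 1.55 CPM in WT ganglia to 12.2, 12.4 and 13.5 CPM in WT cultures (log2 3.00 ± 0.67, adjusted p = 0.00083), and by 4.06 ± 0.69 in KO. Slc16a3 rose from 2.66, 3.07 and 2.61 CPM to 18.4, 16.7 and 15.5 CPM (2.60 ± 0.66, adjusted p = 0.00255), and by 3.67 ± 0.69 in KO. Hk2 rose from 4.52, 5.36 and 5.28 CPM to 22.7, 22.1 and 26.6 CPM (2.23 ± 0.73, adjusted p = 0.0129), and by 3.24 ± 0.74 in KO. In none of these did a culture overlap a ganglion. The larger KO rises rested on KO control culture 2: without it they were 3.33 for Adm, 2.83 for Slc16a3 and 2.42 for Hk2. Pfkfb4 rose by 1.76 ± 0.10 and 1.84 ± 0.10 in WT and KO, and the collagen hydroxylase gene P4ha1 by 1.03 ± 0.23 and 1.19 ± 0.23. Pgk1, the one enzyme besides Hk2 that rose, did so by 0.76 ± 0.17 and 0.88 ± 0.17.

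**Figure D4:**
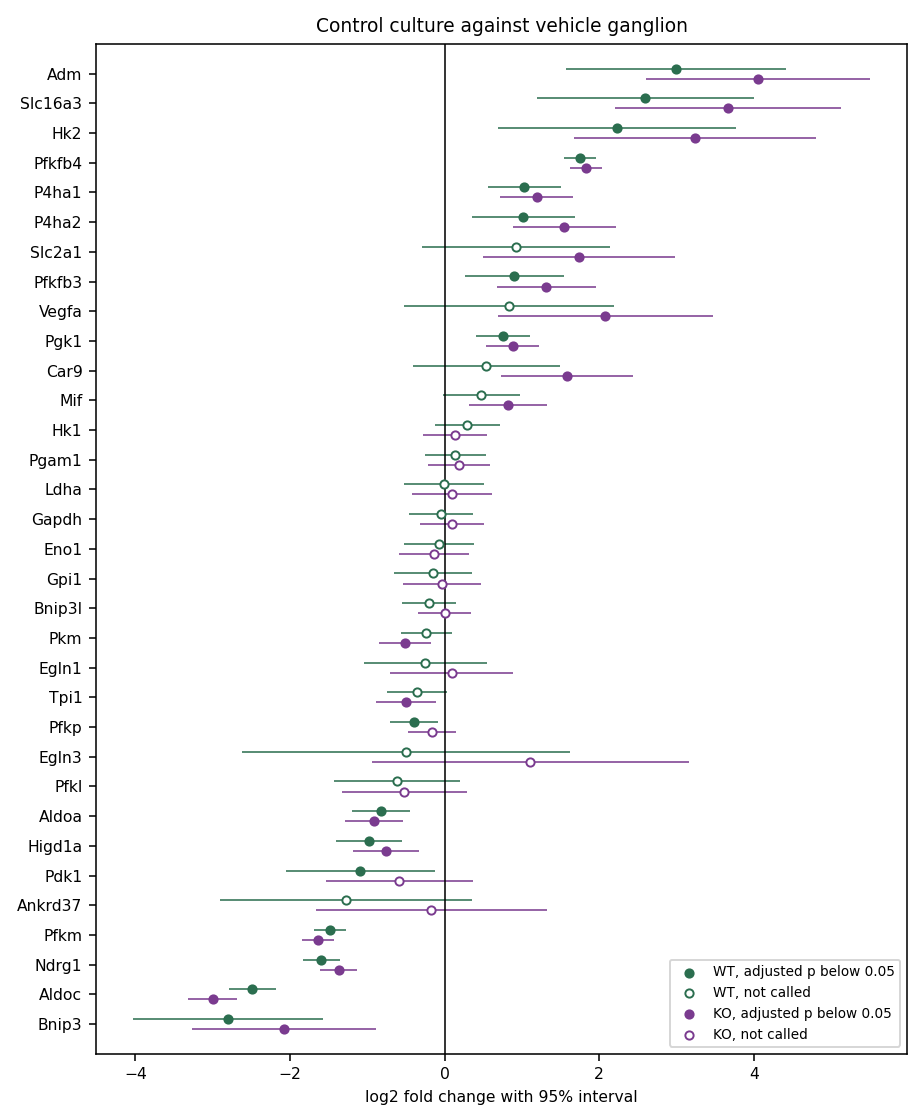
Log2 fold change, control culture against vehicle ganglion, with its 95% interval for each of the 33 genes, WT in green and KO in purple, ordered by the WT value. Filled points passed the threshold of 0.05 after adjustment over all genes. Adm at the top and Bnip3 at the bottom passed in both genotypes.

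Lower in culture in both genotypes were Bnip3, Aldoc, Ndrg1, Pfkm, Higd1a and Aldoa, 75.0% of each list. Here too the overlap over all genes was not counted. Bnip3 fell from 234, 218 and 206 CPM to 32.1, 30.1 and 32.2 CPM in WT, by 2.80 on the log2 scale (SE 0.58, adjusted p = 0.000512), and by 2.08 in KO. Without KO control culture 2 (101 CPM, against 37.3 and 27.6 CPM in the other 2) Bnip3 fell by 2.85 in KO. Aldoc fell from 190, 160 and 182 CPM to 31.5, 30.7 and 32.6 CPM, by 2.49 on the log2 scale (SE 0.15, adjusted p = 5.69e-12), and by 3.00 in KO. Ndrg1 fell by 1.60 and 1.37 and Pfkm by 1.48 and 1.64 in WT and KO. Higd1a, a small mitochondrial protein induced by hypoxia, fell by 0.98 and 0.76. So genes that hypoxia is known to induce lay on both sides: Adm, P4ha1 and P4ha2 rose while Bnip3, Ndrg1 and Higd1a fell. Gapdh and Ldha differed by -0.04 ± 0.20 and -0.01 ± 0.25 in WT.

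Some calls came in 1 genotype. In WT Pdk1 and Pfkp were lower. In KO Car9, Mif, Slc2a1 and Vegfa were higher and Pkm and Tpi1 lower. Slc2a1 in WT stood at 51.35, 59.95 and 58.1 CPM in ganglia and 104.2, 102.9 and 115 CPM in cultures. Vegfa in WT stood at 49.55, 74.42 and 70.8 CPM in ganglia and 111.5, 111.5 and 124.9 CPM in cultures. Neither overlapped. With no filter Mif, Slc2a1, Tpi1 and Vegfa were called in WT too, and Car9 and Pkm were not. Whether these effects differ between genotypes was not tested. Of the calls, 13 of 16 and 16 of 20 held under every alternative that gave an adjusted p. In WT Pdk1 was lost without any 1 library, Pfkp without control culture 1 or 2 or vehicle ganglion 2 or 3, and Pfkfb3 without vehicle ganglion 1. In KO Tpi1 was lost without control culture 1 or 3 or vehicle ganglion 1, and Pkm without control culture 3. Slc2a1 and Vegfa in KO did not hold without KO control culture 2 (1.05 log2, adjusted p = 0.111, and 1.24 log2, adjusted p = 0.0856). That fit still held KO rPOSTN culture 2. Without both KO libraries numbered 2, Slc2a1 and Vegfa were called.

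Alongside these changes the cell markers moved. Of all genes tested, 67.5% were called in WT (33.9% higher and 33.6% lower) and 68.6% in KO (35.3% higher and 33.3% lower). The counts for the lists below are to be read beside these shares. The neuron list was lower for 7 of 8 genes, with a sum of 11900 to 13500 CPM in WT vehicle ganglia and 5100 to 5280 CPM in WT control cultures. The myelinating Schwann list was lower for 6 of 6 (9750 to 14900 CPM and 1520 to 1990 CPM), and the proliferating cell list higher for 6 of 6 (12.9 to 19.2 CPM and 123 to 142 CPM). In WT the endothelial list had 4 higher and 1 lower of 6 (73.6 to 96.4 CPM and 224 to 253 CPM). There the macrophage list had 1 higher and 6 lower of 8, satellite glia 3 and 3 of 6, and fibroblasts 0 and 2 of 6. The erythroid, skeletal muscle and adipocyte lists had 6, 7 and 3 lower and 0 higher. The part of these markers in the differences was not tested. Of the other pathway lists in WT, the hypoxia-induced list had 12 higher and 4 lower of 25, among them Plod2 (2.102 ± 0.186), a lysyl hydroxylase of collagen, and the oxygen-sensing list 5 higher and 5 lower of 13 (Cited2, a HIF antagonist, by 1.86 ± 0.12, and Epas1, which encodes HIF-2α, by 1.21 ± 0.14). The list of other glycolysis and pyruvate genes had 5 higher and 15 lower of 29, where Mpc1, a subunit of the mitochondrial pyruvate carrier, fell by 2.53 on the log2 scale and the lactate transporter gene Slc16a1 rose by 1.48 ± 0.14. The pentose phosphate and glycogen list had 6 higher and 5 lower of 15. KO gave 14 higher and 1 lower, 6 and 5, 7 and 13, and 6 and 4 for the lists in this order.

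Isozyme shares, computed per kilobase, are given as a description. Hk2 made up 2.25% ± 0.36 (SD, n = 3) of Hk1 plus Hk2 in WT vehicle ganglia and 7.93% ± 0.54 (n = 3) in WT control cultures. In KO control cultures it was 13.8% ± 7.0 (n = 3), with 21.9% in library 2, and KO rPOSTN culture 2 reached 31.7%. Pfkm made up 64.3% ± 0.62 of the 3 phosphofructokinases in WT vehicle ganglia and 47.0% ± 1.1 in WT control cultures, while Pfkp, the platelet type, went from 25.6% ± 1.3 to 39.6% ± 1.0. Aldoc made up 7.05% ± 0.85 of the 2 aldolases in ganglia and 2.31% ± 0.016 in cultures.

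IMQ, given to the mice to ask what psoriasis-like inflammation does to the ganglion, left these genes without a detectable change. In WT ganglia 0 of 33 were called (1.3% of all genes), 1 had an unadjusted p under 0.05 (7.27% of all genes), and DESeq2 called 0. That gene was Ndrg1, at 631, 621 and 596 CPM with vehicle and 396 and 532 CPM with IMQ, which did not overlap (log2 -0.41 ± 0.14, adjusted p = 0.361). In KO it stood at 427.5, 502 and 491 CPM with vehicle and 524.5 and 483 CPM with IMQ. The 33 log2 differences in WT ran from -0.41 to 0.37, with a median of 0.06 (-0.01 over all genes), and 31 of 33 intervals lay within 2-fold.

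In KO ganglia 0 of 33 were called (1.1% of all genes), 5 had an unadjusted p under 0.05 (8.39% of all genes), and DESeq2 called 0. Slc2a1 stood at 48.2, 49.6 and 44.6 CPM with vehicle and 58.0 and 62.0 CPM with IMQ (log2 0.33 ± 0.12, adjusted p = 0.499), and P4ha2 at 20.8, 21.3 and 18.1 against 26.4 and 24.0 CPM (0.32 ± 0.12, adjusted p = 0.49). Neither pair of groups overlapped. Adm differed by 0.71 ± 0.29, Hk2 by 0.56 ± 0.25 and Pfkfb3 by 0.37 ± 0.16. The median of all 33 was -0.07 (-0.01 over all genes), and 28 of 33 intervals lay within 2-fold.

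**Figure D5:**
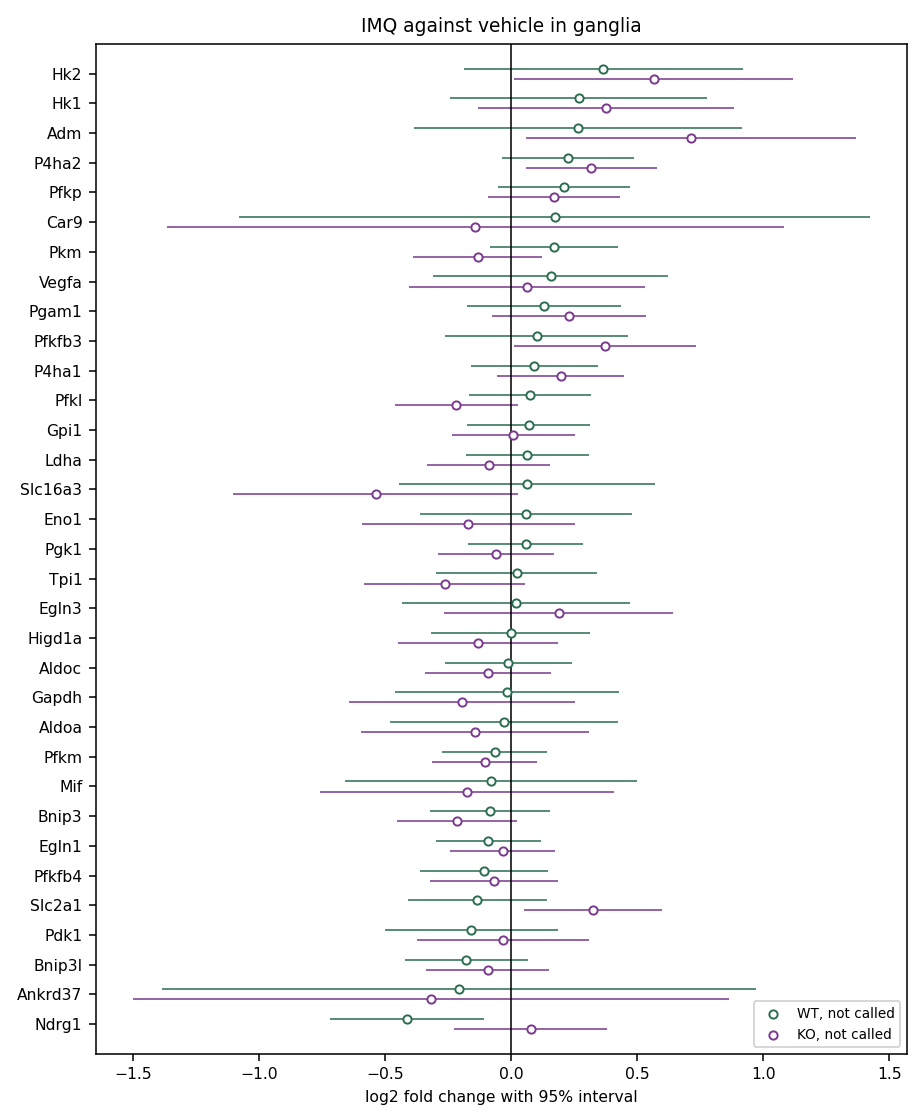
Log2 fold change, IMQ against vehicle in whole ganglia, with its 95% interval for each of the 33 genes, WT in green and KO in purple, ordered by the WT value. All points are open because none passed the threshold, and Ndrg1 lies lowest in WT, at -0.41.

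The genotype dependence of the IMQ effect was tested as an interaction. It called 0 of 33 (0.0% of all genes), with 2 at an unadjusted p under 0.05 (2.12% of all genes) and 0 called by DESeq2. These were Slc2a1 (KO minus WT 0.46 ± 0.17) and Ndrg1 (0.49 ± 0.19), both with an adjusted p of 0.999. In WT Slc2a1 had stood at 51.4, 60.0 and 58.1 CPM with vehicle and 45.4 and 57.8 CPM with IMQ. Intervals of 29 of 33 lay within 2-fold.

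Other pathway genes moved little with IMQ, where 1.3% of all genes were called in WT and 1.1% in KO. Of 28 other glycolysis and pyruvate genes tested in WT, 1 was higher and 1 lower: Hk3, a hexokinase of blood cells, rose by 2.07 ± 0.35 (adjusted p = 0.0207), from 1.36, 1.62 and 1.81 CPM to 7.40 and 6.07 CPM, and Pdk4, another kinase of pyruvate dehydrogenase, fell by 1.29 on the log2 scale (adjusted p = 0.00396). In KO Pdk4 differed by 0.66 with IMQ (adjusted p = 0.14). It was also lower in KO than in WT vehicle ganglia (log2 -1.49, adjusted p = 0.0147), a comparison with the same WT vehicle libraries. The oxygen-sensing, other hypoxia-induced and pentose phosphate lists had 0 called in either genotype. Macrophage markers rose for 6 of 8 genes in both genotypes, with a sum of 84.8 to 101 CPM with vehicle and 333 to 353 CPM with IMQ in WT. Schwann cell markers summed to 9750 to 14900 CPM in WT vehicle and 5120 to 7380 CPM in WT IMQ ganglia. Ndrg1 differed in the same direction there. In KO the Schwann cell sums were 6370 to 7570 and 5140 to 5590 CPM. Ndrg1 in KO overlapped, at 427.5 to 501.8 CPM with vehicle and 482.9 to 524.5 CPM with IMQ. The part of the macrophage and Schwann cell markers in the values was not tested.

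The shares of the phosphofructokinases differed between vehicle and IMQ libraries in both genotypes. Pfkp stood at 24.3 to 26.9% with vehicle and 29.0 to 29.4% with IMQ in WT, and at 22.9 to 26.4% and 28.6 to 29.5% in KO. Pfkm was the lower with IMQ, 63.6 to 64.9% against 60.0 to 60.8% in WT and 63.8 to 65.6% against 61.6 to 61.8% in KO. Groups did not overlap. The shares were compared after their values were seen and have no test, and neither Pfkp (0.21 ± 0.12 in WT) nor Pfkm passed the test as a gene.

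KO against WT ganglia showed no detectable difference either. With vehicle, 0 of 33 were called (0.0116% of all genes), 1 had an unadjusted p under 0.05 (3.08% of all genes), and DESeq2 called 0. Ndrg1 was again that gene, 631, 621 and 596 CPM in WT against 427.5, 502 and 491 CPM in KO (log2 -0.38 ± 0.12, adjusted p = 1.0), and the groups did not overlap. These WT vehicle libraries are those of the IMQ comparison. With IMQ, 0 of 33 were called (0.00581% of all genes), 1 had an unadjusted p under 0.05 (1.85% of all genes), and DESeq2 called 0. Slc16a3 stood at 3.00 and 2.81 CPM in WT and 1.41 and 1.46 CPM in KO (log2 -1.02 ± 0.27, adjusted p = 0.997). Its values with vehicle were 2.66, 3.07 and 2.61 CPM in WT and 2.46, 1.55 and 2.23 CPM in KO, where the difference was -0.42 ± 0.21. Intervals of 31 and 30 of 33 lay within 2-fold.

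Vehicle library 1 of both genotypes also differed in these genes. Aldoa stood at 1.39 and 1.27 times the mean of the other 2 vehicle libraries in WT and KO, Gapdh at 1.38 and 1.28, Eno1 at 1.36 and 1.23, Mif at 1.62 and 1.42 and Ankrd37 at 2.52 and 2.26. Below 1 were Hk1 at 0.669 and 0.656, Pgam1 at 0.821 and 0.772 and Vegfa at 0.682 and 0.735. Leaving out any 1 library of the groups compared gave 0 calls in each of the 5 ganglion comparisons.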

How the data were processed

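RNA with poly-A tails was sequenced as strand-marked paired reads, per the labels' protocols. The authors deposited raw read counts per Ensembl gene in 3 tables: ganglia, WT cultures and KO cultures. HISAT2 2.1.0, Bowtie2 2.2.3, TopHat2 and GRCm39 are named in the submitters' processing notes, with no role. The annotation release is not given in the sources used here, nor is the counter or its strand setting, so overlapping and antisense genes cannot be told apart. Symbols and exon lengths came from GENCODE M21.

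Each comparison was tested with edgeR 4.0.16 (R 4.3.3): TMM scaling, filterByExpr, a robust quasi-likelihood fit and Benjamini-Hochberg adjustment over all genes tested, with a threshold of 0.05. The ganglion comparisons shared 1 fit. Both comparisons of cultures with ganglia came from 1 fit of all 22 libraries. The KO against WT culture comparison and the rPOSTN interaction came from 1 fit of the 12 culture libraries. All 33 genes passed the filter in all 11 comparisons. CPM values used TMM over all 22 libraries. Ratios of a library to its group used genes with a mean of at least 1 CPM. The intervals around log2 changes are 95% intervals of the fit. Where groups of 2 or 3 libraries are said not to overlap, this only describes the values. So few libraries can also separate by chance, and the share of all genes that did was not counted. Fits were tested on simulated counts with 100 genes changed 2-fold and another 100 changed 4-fold per comparison. The changed genes were drawn from all well-counted genes, not from these 33. The tests recovered 60% and 59% of the 2-fold changes for IMQ in WT and KO ganglia, and 18% for the interaction of IMQ with genotype. For KO against WT ganglia they recovered 71% with vehicle and 52% with IMQ. Recovery in the comparisons that involve cultures was 68% to 95%. These shares are not those of the 33 genes, whose standard errors in KO cultures reached 1.64. Where fewer genes change, the adjustment is stricter and recovery can be lower. Many 2-fold changes in ganglia would thus be missed. The depth of 16666489 to 24118303 counts limits mainly genes near 1 CPM, such as Car9 and Ankrd37.

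The genes and lists were chosen with earlier results of these data known. Of called genes in a comparison the 6 largest and 6 smallest changes, or with under 5 calls the 5 smallest p, were to be named. Genes named for the KO culture libraries numbered 2, and those and the isozyme shares themselves, were chosen after their values were seen.

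Same-numbered samples were checked for pairing by the correlation of their deviations from the group means. It was over 0.1 for every pair of WT control with rPOSTN cultures (0.31 to 0.58), KO control with rPOSTN cultures (0.38 to 0.68) and WT with KO vehicle ganglia (0.16 to 0.89), so the numbers were taken to pair these, on the data and not the labels. The main fits held no block, so their standard errors, intervals and p-values ignore this pairing. Fits with the replicate number as a block were alternatives, as were DESeq2 1.42.0, its size factors, no filter, no scaling, other sets of groups in the fit, and each library left out. Leaving out both KO culture libraries numbered 2 was added after the values were seen. Promoters were searched for ACGTG and GCGTG on both strands. Protein sequences were not used here. Results for some genes are not reported here.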

Additional observations from a re-analysis of the deposited data

How the results depend on the processing

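The counts of called genes were within 1.5 times their main value in 135 of 137 alternative fits. The exceptions are both in KO against WT control cultures, where 0 became 1.0 with no filter (Aldoc, log2 -0.47, adjusted p = 0.0122) and 2.0 without replicate 2 of both KO culture groups. The cause was not tested. Leaving out single libraries gave 14 to 15 calls for WT cultures against ganglia and 18 to 20 for KO, and 0 in the other 9 comparisons. With no filter these 2 counts were 23 each, while 35.3% and 36.4% of all genes were called.

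In KO cultures the rPOSTN difference turned negative without KO rPOSTN culture 2 for Egln3 (-2.0), Vegfa (-0.94) and Slc2a1 (-0.56), and was 2.66, 1.61 and 1.68 without KO control culture 2. It was also negative without both libraries numbered 2 for Egln3 (-0.42) and Vegfa (-0.09). None of these passed the threshold in any fit. Pdk1, lower in WT cultures than in ganglia, had adjusted p of 0.0624 to 0.0957 under DESeq2, no scaling and each library left out.

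The replicate block left each count of calls as it was: 0 in the comparisons of treatment and genotype it was fitted to, and 16 and 20 for cultures against ganglia. It was 1 factor over all libraries of a fit, so it also joined same-numbered libraries without such pairing. These were WT with KO control cultures (correlation -0.3 to -0.01) and ganglia with cultures (-0.02 to 0.17 in WT, -0.05 to 0.12 in KO). In fits that hold both members of such a pair, the block does not show what pairing would change. Without scaling, the culture calls were 9 higher and 6 lower in WT and 12 and 6 in KO, and the median of all genes moved from 0.01 to 0.145 and from 0.051 to 0.271. IMQ groups hold 2 libraries each, and leaving out 1 assumes that the lone sample varies like the other groups.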
